A study of Homo sapiens and Mus musculus with 54 samples.

Results

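The genes described here are those of the aryl hydrocarbon receptor (AhR) machinery itself: AHR, its dimer partners ARNT and ARNT2, the feedback repressors AHRR and TIPARP, and the chaperones PTGES3 and HSP90AB1. These 7 of 19970 protein-coding genes were taken from a fixed list, and every entry of the 4 HepG2 peak lists within 50 kb of a RefSeq gene body (GRCh38, the assembly of hg38) was assigned to them. HepG2 is a human liver cancer cell line. Its libraries came from cells with (Control) and without (B2_minus) vitamin B2 at day 12, with 2 and 2 libraries for AhR, 2 and 2 for the liver factor C/EBPα, and 5 and 5 for H3K27ac, a histone acetylation found at enhancers and promoters in use. A separate H3K27ac experiment held 2 libraries each of Control with DMSO, B2_minus with DMSO and B2_minus with an AhR inhibitor whose name the labels do not give. With 6 inputs these are 30 of the series' 54 libraries, and the mouse libraries were not used here. Each list covers a whole experiment and holds positions only, so no value per library and no difference between B2 supplies or between inhibitor and DMSO can be given for any gene here. The lists held 56739 AhR peaks, 62761 C/EBPα peaks, 106666 H3K27ac regions in the list of the main experiment (called the untreated list) and 97145 in the list of the inhibitor experiment (the inhibitor list).

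In its resting state AhR sits in the cytosol in a complex with HSP90, of which HSP90AB1 is a constitutive form, and with the co-chaperone p23, encoded by PTGES3. Ligand binding sends it to the nucleus, where it pairs with ARNT and binds response elements with the core letters GCGTG at genes such as CYP1A1, AHRR and TIPARP. AHRR competes with AhR for ARNT and for these sites, and TIPARP is an ADP-ribosyltransferase that modifies AhR and lowers its activity, so both close a negative feedback loop. ARNT also serves as the partner of the hypoxia-inducible factors, and ARNT2 is a paralog best known from neurons and kidney.

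All 7 genes had at least 1 AhR peak within 50 kb, which was also true of 85.4% of protein-coding genes. The most peaks lay at TIPARP and ARNT2, with 8 each, followed by ARNT with 6, AHRR and HSP90AB1 with 5, PTGES3 with 4 and AHR with 1. The AhR peaks numbered 37 in all, of which 19 lay inside a member gene, 7 in another protein-coding gene and 11 between genes. They were 203 to 450 bp wide. The receptor gene thus had a single AhR peak and the feedback gene TIPARP 8 in a shorter window, of which 4 lay within 10 kb of the gene and 3 inside it.

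AhR peaks lay on the annotated start of 2 of these genes, AHRR and PTGES3, and not on those of AHR, ARNT, TIPARP or HSP90AB1. By a looser measure, 14.9% of protein-coding genes with an annotated start had an AhR peak centred within 1 kb of one. RefSeq (GRCh38.p14) promoter windows, running from 250 bases before to 50 bases after a start, were matched for 6 of the 7 genes, the exception being ARNT2. The 250 bases upstream of 4 starts are printed because they set the starts under an AhR peak, those of AHRR (plus strand, chr5:321464-321713) and PTGES3 (minus strand, chr12:56688285-56688534), beside those of TIPARP (plus strand, chr3:156674340-156674589) and AHR (plus strand, chr7:17298402-17298651), where no AhR peak overlapped the window. Capitals mark GCGTG or its reverse complement CACGC, 5′ to 3′ on the strand of the gene.
AHRR: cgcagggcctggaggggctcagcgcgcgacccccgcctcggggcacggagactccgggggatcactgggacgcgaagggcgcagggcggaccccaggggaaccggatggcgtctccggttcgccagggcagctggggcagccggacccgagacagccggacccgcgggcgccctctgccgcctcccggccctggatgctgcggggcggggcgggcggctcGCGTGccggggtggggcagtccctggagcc
PTGES3: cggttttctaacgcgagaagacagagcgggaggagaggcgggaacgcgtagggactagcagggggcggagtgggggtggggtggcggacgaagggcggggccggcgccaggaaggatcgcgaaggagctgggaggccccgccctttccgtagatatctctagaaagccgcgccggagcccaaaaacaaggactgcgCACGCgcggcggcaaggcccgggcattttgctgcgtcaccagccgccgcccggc
TIPARP: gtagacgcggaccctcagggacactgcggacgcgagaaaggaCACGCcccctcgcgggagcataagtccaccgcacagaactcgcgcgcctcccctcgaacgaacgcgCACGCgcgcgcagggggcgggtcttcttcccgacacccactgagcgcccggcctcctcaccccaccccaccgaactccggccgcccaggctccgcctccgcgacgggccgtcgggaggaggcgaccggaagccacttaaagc
AHR: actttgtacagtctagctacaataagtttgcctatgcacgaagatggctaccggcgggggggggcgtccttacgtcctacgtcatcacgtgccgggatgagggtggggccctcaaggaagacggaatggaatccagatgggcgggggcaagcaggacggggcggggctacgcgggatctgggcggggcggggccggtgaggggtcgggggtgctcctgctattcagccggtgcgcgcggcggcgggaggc

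The AhR peak of AHRR at chr5:321550-321786 spanned the start at 321714, and its centre lay 46 bp upstream. The capitals in the AHRR sequence begin 30 bases upstream of the start and lie inside this peak. There they are part of the longer form TNGCGTG, which contains GCGTG. On either strand, 5.51% of all 35116 promoter windows and 10.4% of those that overlap an AhR peak hold it. The AhR peak of PTGES3 at chr12:56688167-56688384 spanned the start at 56688284, with its centre 8.5 bp downstream, and covered all 3 GCGTG matches of that window, of which 1 is in the printed bases and 2 lie 18 and 22 bases downstream of the start. The TIPARP window held 2 matches, 142 and 208 bases upstream, and neither was in an AhR peak. AHR had none in the printed bases and 1 that lies 37 bases downstream of the start.

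Over the 11 promoter windows of the 6 matched genes, GCGTG was present in 8, or 72.7%, against 36.5% of all windows and 46.1% of the 2205 windows that overlap an AhR peak. The median GC content was 67.3% in the windows of these genes and 58.7% over all windows, and its part in the match count was not tested. TNGCGTG was present in 2 of the 11, at the first start of AHRR and the third of HSP90AB1. This came to 18.2%, against 5.51% of all windows and 10.4% of those that overlap an AhR peak. Of the 11 windows, only those at the first start of AHRR and at PTGES3 overlapped an AhR peak. Most windows with GCGTG, and the HSP90AB1 window with TNGCGTG, thus overlapped none. Peaks assigned here also lay over promoter windows of neighbouring genes. In all, 5 AhR peaks overlapped 7 promoter windows. These were windows of AHRR and PTGES3 themselves, and of the neighbours SLC9A3-OT1, SLC9A3-AS1, BAZ2A and a pair of SLC35B2. All 7 windows held GCGTG, against the 46.1% above. They are not 7 separate sequences, since the windows of SLC9A3-OT1 and SLC9A3-AS1 overlap each other, as do the pair of SLC35B2. A match describes letters, not a site of binding.

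The H3K27ac lists have to be read with a gap around gene starts. The untreated list held 226 regions with a centre 2500 to 3000 bp from the nearest protein-coding start and 1463 from 3000 to 3500 bp, a 6.47-fold step, and the inhibitor list stepped 6.29-fold. The same ratio was 0.954 for AhR and 0.892 for C/EBPα. Of protein-coding genes with a start in the promoter table, 1.71% had an untreated H3K27ac region within 1 kb of it, against 14.9% for an AhR peak and 22.2% for a C/EBPα peak. The missing regions at the starts of AHR, ARNT, TIPARP, PTGES3 and HSP90AB1 therefore say nothing about acetylation there. AHRR was the exception among the 6 matched genes.

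**Figure D1:**
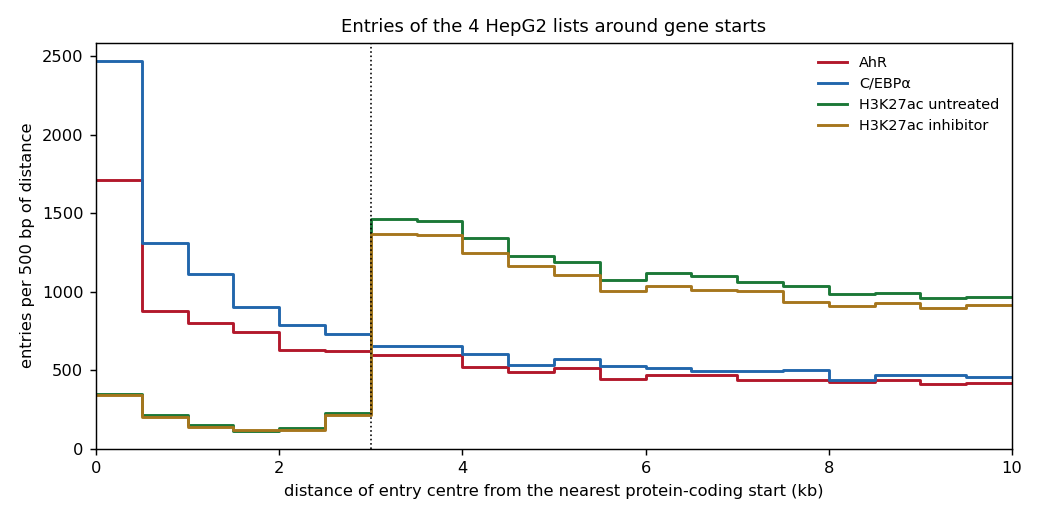
Number of list entries per 500 bp (vertical axis) against the distance of the entry centre from the nearest protein-coding start in kb (horizontal axis), for the 4 HepG2 lists; the dotted line marks 3 kb. Both H3K27ac lists rise at 3 kb, from 226 to 1463 regions in the untreated list, while the AhR list goes from 626 to 597.

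AHR, the receptor gene (gene ID 196, chr7:17298652-17346147), had the fewest AhR peaks of the 7 genes. The peak at chr7:17307151-17307367 was a single one, meaning that the name of the entry gives a merge number of 1. An entry with a number of 2 or more is called merged, on the reading that the number counts the peaks joined in it. It lay 8607 bp downstream of the start, 13 bp centre to centre from a C/EBPα peak at chr7:17307139-17307405 with a merge number of 3, and 28.5 bp from the centre of an H3K27ac region. That C/EBPα peak was the one nearest to the start. AHR had 3 C/EBPα peaks and 4 H3K27ac regions in all. Its AhR density was 0.678 peaks per 100 kb of window, the gene body with 50 kb on each side, against a median of 2.58 over all protein-coding genes, and 18.8% of genes had a lower one. All 3 kinds of entry at AHR thus lay below the median density of their list, with C/EBPα at 2.03 against 2.94 and untreated H3K27ac at 2.71 against 4.72 per 100 kb.

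ARNT, the main partner of AhR (gene ID 405, chr1:150809713-150876599, minus strand), was the gene richest in C/EBPα. It had 11 C/EBPα peaks, or 6.59 per 100 kb, a density above that of 83.9% of genes, and 6 AhR peaks. All 6 AhR peaks overlapped a C/EBPα peak, and 2 of them overlapped an untreated H3K27ac region. Inside the gene lay chr1:150852352-150852555, which overlapped a region, and the merged peak chr1:150874959-150875215, 1512 bp downstream of the start, with a C/EBPα centre 8.5 bp away. Upstream of the start lay chr1:150881729-150881947 and, within CTXND2, chr1:150891429-150891673. The peaks chr1:150767718-150767923 and chr1:150787824-150788085, beyond the far end of the gene, lay nearer to CTSS and CTSK, which encode cathepsins, than to ARNT. A C/EBPα peak with a merge number of 3 at chr1:150876803-150877022 lay 313.5 bp upstream of the start, where no AhR peak was listed. H3K27ac was sparse, with 3 regions in the untreated list, or 1.8 per 100 kb, and the nearest to the start was the one that overlapped the AhR peak in CTXND2.

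ARNT2 (gene ID 9915, chr15:80404382-80597933) had few C/EBPα peaks for the length of its window. The 2 C/EBPα peaks came to 0.681 per 100 kb, against the median of 2.94 over all genes. The 15 untreated H3K27ac regions came to 5.11 per 100 kb, near the median of 4.72. All 8 AhR peaks overlapped an untreated H3K27ac region, and 2 overlapped a C/EBPα peak. A first group of 6 single peaks lay inside the gene, at chr15:80435461-80435690, chr15:80436753-80436971, chr15:80459430-80459687, chr15:80465040-80465250, chr15:80485380-80485606 and chr15:80485819-80486102. Of these, the peak at chr15:80459430-80459687 overlapped a C/EBPα peak, with 73.5 bp between the centres. The 2 merged peaks lay apart from this group, chr15:80596568-80596804 inside the gene near its high-coordinate end and chr15:80616135-80616362 at 18202 bp beyond that end, the latter with C/EBPα. The counts of the paralogs thus stood at 6 of 6 AhR peaks with C/EBPα and 2 of 6 with H3K27ac at ARNT, against 2 of 8 and 8 of 8 at ARNT2. The 95% Wilson intervals for C/EBPα were 61 to 100% at ARNT and 7.15 to 59.1% at ARNT2. Those for H3K27ac, 9.68 to 70% at ARNT and 67.6 to 100% at ARNT2, overlapped. The intervals cover counting error only, neighbouring peaks are not independent, and the difference was not tested.

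**Figure D2:**
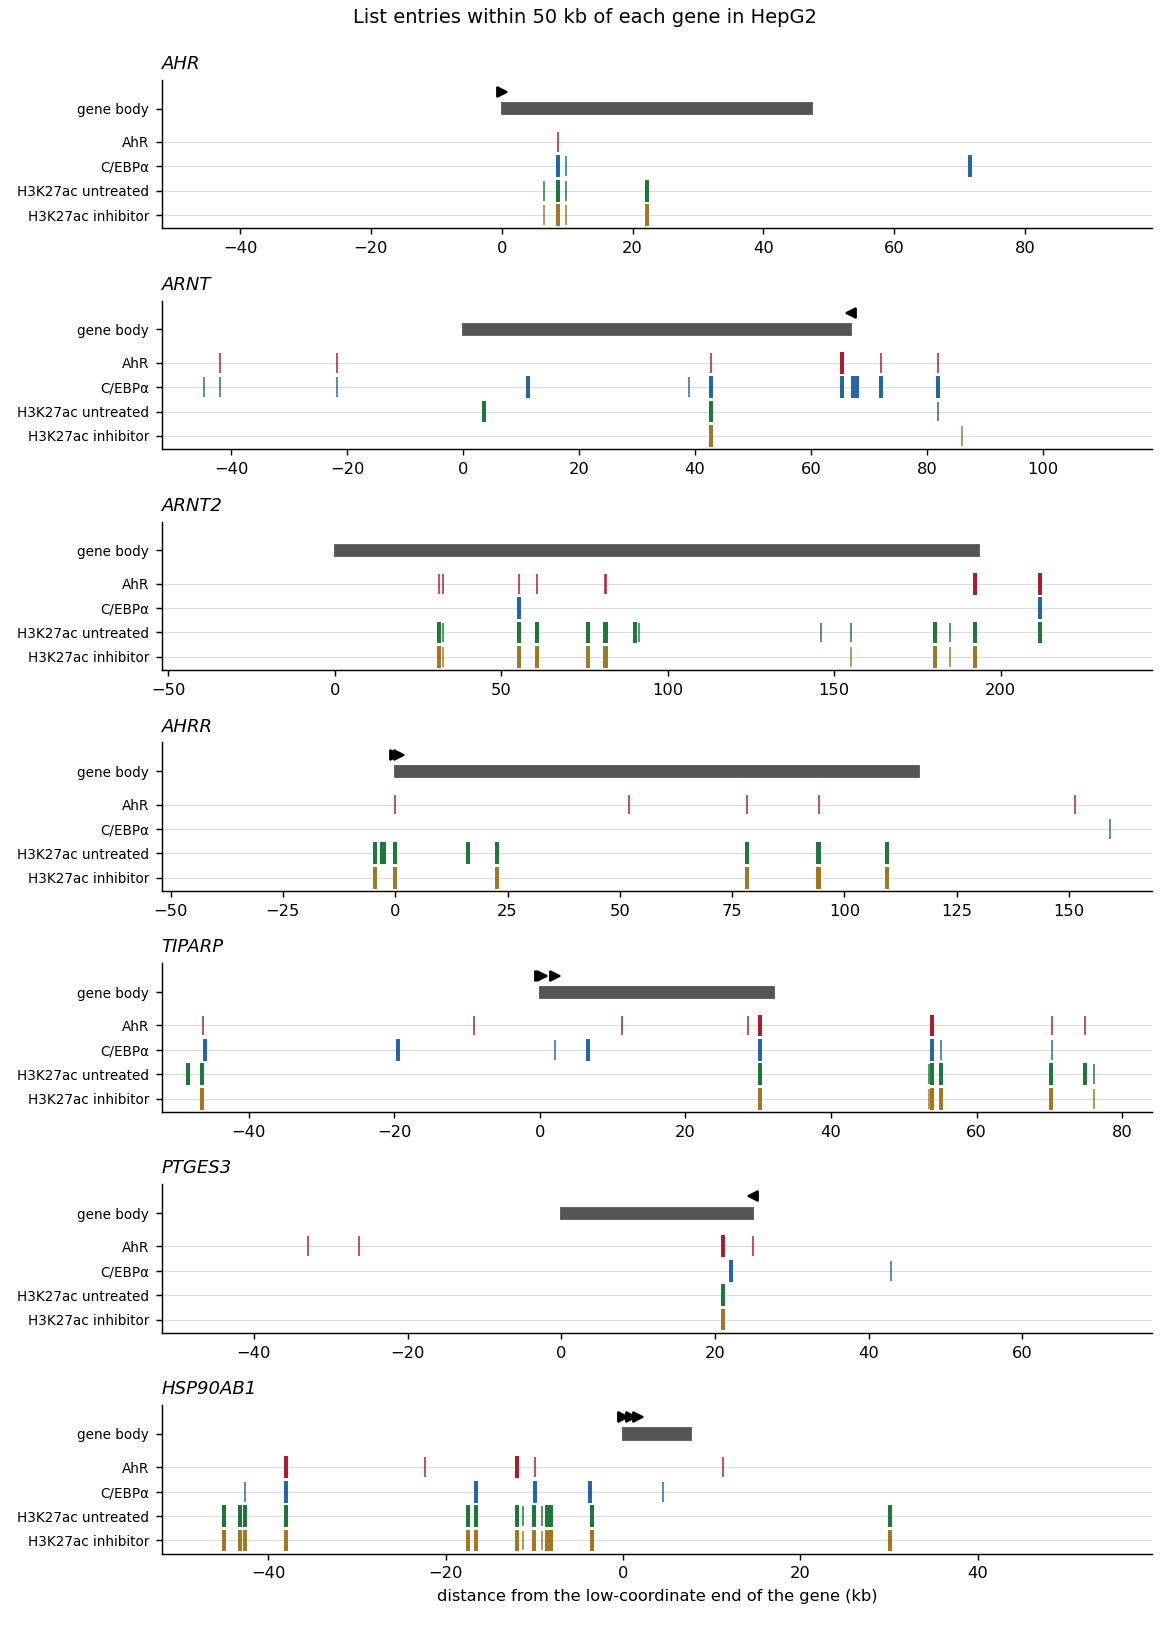
Positions of list entries within 50 kb of each gene, in kb from the end of the gene with the lower coordinate (horizontal axis); rows are the 4 HepG2 lists, grey bars are gene bodies, arrowheads are RefSeq starts pointing in the direction of the gene, and thick and thin ticks are entries with a merge number of 2 or more and of 1. AHR has a single AhR tick, the 11 C/EBPα ticks of ARNT run from beyond its far end to upstream of its start, and 14 of the 15 untreated H3K27ac ticks of ARNT2 lie inside the gene.

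AHRR, the AhR repressor (gene ID 57491, chr5:321714-438285), had 5 AhR peaks and no C/EBPα peak at any of them. The only C/EBPα peak in the window, chr5:480837-481050, lay 158333.5 bp from the nearest AHRR start, and the C/EBPα density of 0.462 per 100 kb was the lowest of the 7 genes. All 5 AhR peaks were single. Besides the peak on the start, chr5:373759-373963, chr5:399938-400142 and chr5:415860-416095 lay inside the gene, and chr5:472911-473152 lay within SLC9A3, over the promoter windows of SLC9A3-OT1 and SLC9A3-AS1. The peak on the AHRR start overlapped an untreated H3K27ac region at chr5:321485-321773, as did the peaks at 399938 and 415860 with regions of their own, while those at 373759 and 472911 overlapped none. AHRR had 10 untreated regions, all with a merge number of at least 2, or 4.62 per 100 kb against the median of 4.72.

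TIPARP (gene ID 25976, chr3:156674590-156706770) had the highest AhR density of the 7 genes, 6.05 peaks per 100 kb, above that of 85.2% of protein-coding genes. It is the nearest protein-coding gene to all 8 peaks. None lay near a TIPARP start: the closest, chr3:156665369-156665611, was 9100 bp upstream, and chr3:156685754-156685956 was 9191 bp downstream. Neither of these overlapped C/EBPα or H3K27ac, nor did chr3:156703035-156703271 inside the gene. The AhR peaks that overlapped both lay at chr3:156704693-156704919, inside the gene near its far end, and at chr3:156728361-156728607 and chr3:156744748-156745051 beyond it. The first 2 of these were the merged AhR peaks of TIPARP, each over a C/EBPα peak with a merge number of 3. The outermost peaks, chr3:156628109-156628369 upstream and chr3:156749324-156749561 downstream, overlapped an H3K27ac region and no C/EBPα peak. A C/EBPα peak with a merge number of 3, chr3:156628380-156628612, lay beside the upstream one, 257 bp centre to centre. A single C/EBPα peak at chr3:156676500-156676716 spanned the third start. TIPARP also had 8 C/EBPα peaks, 6.05 per 100 kb, and 9 untreated H3K27ac regions, 6.81 per 100 kb, so all 3 lists lay above their medians.

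PTGES3, the p23 co-chaperone (gene ID 10728, chr12:56663349-56688284, minus strand), had 4 AhR peaks and the lowest H3K27ac density, with 1 region or 0.8 per 100 kb. Besides the peak on its start, a merged AhR peak at chr12:56684273-56684512 lay 3891.5 bp downstream of the start and overlapped that single region, chr12:56684222-56684517. The other 2 peaks, chr12:56630287-56630511 and chr12:56636844-56637293, lay within BAZ2A, near starts of that gene. Because the H3K27ac lists have their gap around starts, the low H3K27ac density says nothing about acetylation at the starts of PTGES3 and BAZ2A. C/EBPα was absent from all 4 AhR peaks. The nearest C/EBPα peak to the start was chr12:56685348-56685565, 2827.5 bp downstream, with a merge number of 2.

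HSP90AB1 (gene ID 3326, chr6:44246194-44253883) was the only one of the 7 genes without an AhR peak inside the gene body, where 47.0% of all protein-coding genes had one. Each of its 5 AhR peaks lay nearer to another gene. The peak chr6:44208090-44208303 lay in MYMX, chr6:44223764-44223995 in SLC29A1 and chr6:44257299-44257681 in SLC35B2, over promoter windows of that gene. Between SLC29A1 and HSP90AB1 lay chr6:44234143-44234366, which overlapped an H3K27ac region alone, and chr6:44236215-44236455, which overlapped both and whose centre was 1 bp from that of a C/EBPα peak. The merged peaks were those at 44208090 and 44234143. The HSP90AB1 window was the densest in H3K27ac, with 14 untreated regions or 13 per 100 kb, above 86.7% of genes, but HSP90AB1 was the nearest gene for 1 of the 14. The region nearest to a start, chr6:44242604-44242849, lay 3467.5 bp upstream. C/EBPα peaks numbered 6, or 5.57 per 100 kb, a density above that of 76.8% of genes. The one nearest to a start, chr6:44250572-44250781, lay inside the gene, 2733.5 bp downstream.

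**Figure D3:**
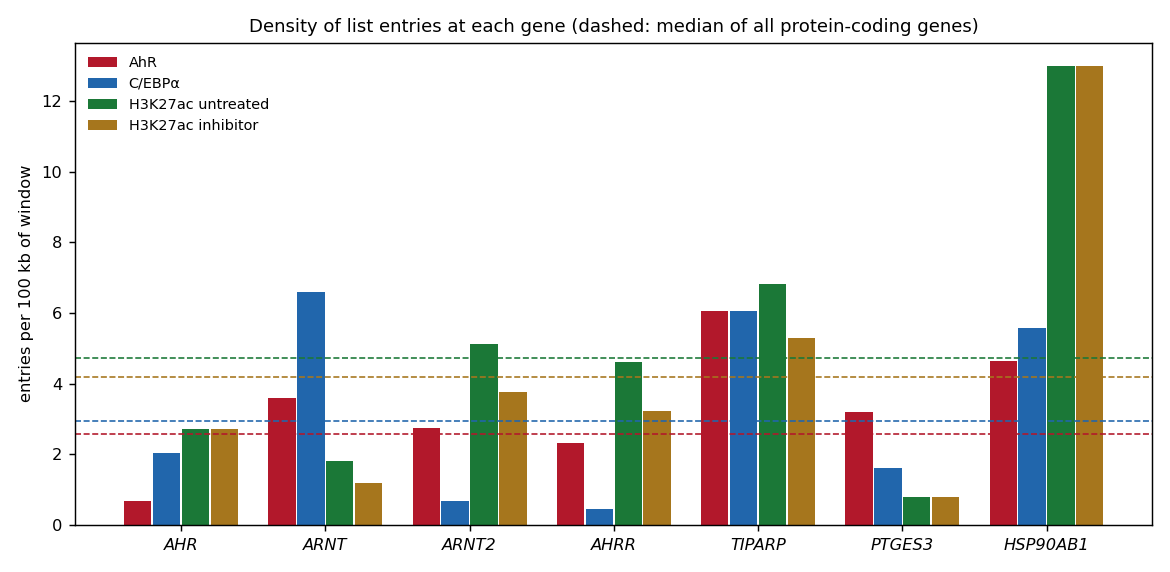
Entries per 100 kb of window (vertical axis, from 0) for each gene and each of the 4 HepG2 lists (bars); dashed lines are the medians of all 19970 protein-coding genes in the colour of the list. AhR is lowest at AHR, at 0.678, and highest at TIPARP, at 6.05, and H3K27ac is highest at HSP90AB1, at 13.

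As a group the 7 genes stood near the rest of the genome in these densities. The median AhR density was 3.2 peaks per 100 kb over the 7 genes and 2.58 over all genes, and 5 of the 7 lay above the latter. For C/EBPα the medians were 2.03 and 2.94, with 3 of 7 above, and for untreated H3K27ac 4.62 and 4.72, with 3 of 7 above. Every one of the 7 had a C/EBPα peak, an untreated H3K27ac region and an inhibitor-list region within 50 kb, as did 88.6%, 90.4% and 88.1% of all genes. An AhR peak inside the gene was present at 6 of 7, against 47.0% of all genes, without matching on gene length. A C/EBPα peak inside was present at 6 of 7, all but AHRR, against 51.4%, and a region of the untreated and of the inhibitor list at 6 of 7, all but HSP90AB1, against 51.8% and 49.9%. Counting an entry for its nearest gene alone, 6 of 7 kept an AhR peak and 6 of 7 a C/EBPα peak, against 61.1% and 66.5% of all genes, and 7 of 7 kept a region of each H3K27ac list, against 69.5% and 66.8%. Of the 6 genes with a RefSeq start here, 2 had an AhR peak centred within 1 kb of it, against 14.9% of all such genes, and 2 had a C/EBPα peak there, ARNT and TIPARP, against 22.2%. AHRR alone had an H3K27ac region there, in both lists, against 1.71% and 1.64%. Those shares are taken inside the gap of the H3K27ac lists, so they do not set AHRR apart in acetylation.

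Most AhR peaks of the group were single, and the partners at them differed from gene to gene. Of the 37 peaks, 14 overlapped a C/EBPα peak, or 37.8% (95% Wilson interval 24.1 to 53.9), where the whole AhR list had 55.3%. An untreated H3K27ac region overlapped 23, or 62.2% (46.1 to 75.9), where the list had 70.7%. An inhibitor-list region overlapped 20, or 54.1%, where the list had 65.8%. Both partners overlapped 10, or 27% (15.4 to 43.0), where the list had 41.1%. Untreated H3K27ac alone was present at 13, or 35.1%, against 29.5%, and C/EBPα alone at 4, all near ARNT, or 10.8% against 14.2%. Neither was present at 10, or 27% against 15.1%. The share with neither includes peaks in the gap of the H3K27ac lists around starts. Of the 37 peaks, 7 were centred within 3 kb of a protein-coding start, against 9.5% of the list. Among these 7, an untreated region overlapped 1 and a C/EBPα peak 1. Merged peaks made up 8 of the 37, or 21.6% (11.4 to 37.2), against 42.3% of the list. Merged peaks were 4 of the 10 with both partners and 0 of the 10 with neither, against 63.8% and 13.3% in the whole list. At least 1 peak with both partners was present at AHR, ARNT, ARNT2, TIPARP and HSP90AB1, 5 of 7, against 62.2% of all genes. The same 5 genes had an AhR peak with C/EBPα, against 73.5%, and all 7 had one with H3K27ac, against 75.6%. A merged AhR peak was present at 5 of 7, all but AHR and AHRR, against 66.3%. A peak with neither partner was present at 4 of 7, AHRR, TIPARP, PTGES3 and HSP90AB1, against 50.2%. These shares are descriptions over few peaks, and none of the differences was tested.

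**Figure D4:**
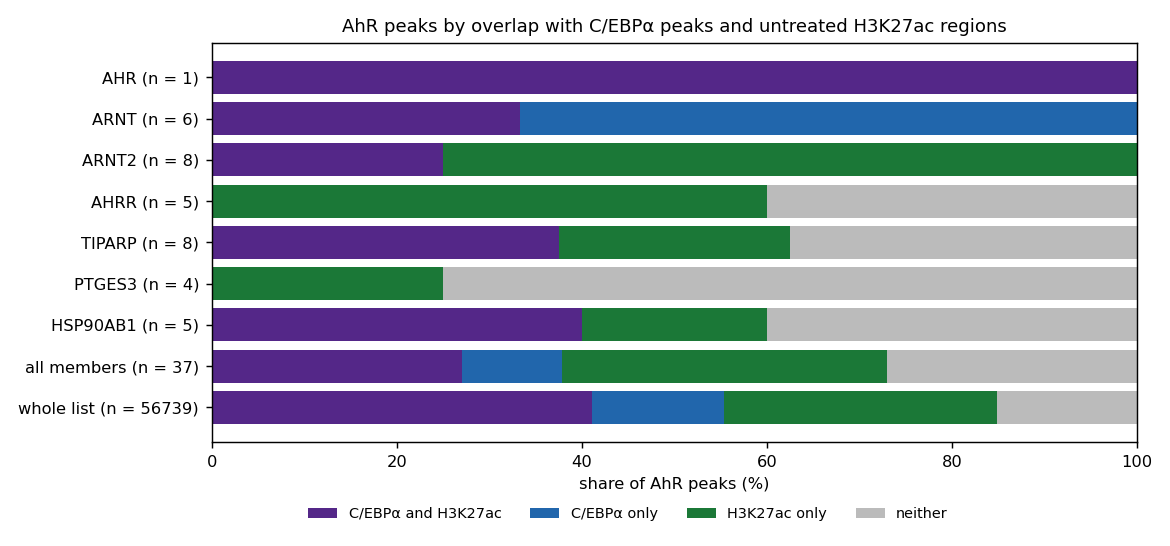
Share of AhR peaks in percent (horizontal axis) that overlap both a C/EBPα peak and an untreated H3K27ac region, only one of these, or neither, for each gene, for all 37 peaks (all members) and for the whole AhR list; n is the number of AhR peaks. C/EBPα is present at all 6 peaks of ARNT and at none of AHRR or PTGES3, and H3K27ac is present at all 8 peaks of ARNT2.

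Overlap with H3K27ac differed with nearness to a start, where that list has its gap. Of the 37 AhR peaks 7 had a centre within 3 kb of a protein-coding start, against 9.5% of the whole list. Of these 7, 1 overlapped an untreated region, the one on the AHRR start. Of the 30 peaks farther out, 22 did, or 73.3% (95% Wilson interval 55.6 to 85.8), against 77.5% of such peaks in the whole list. Within 3 kb of starts, 5.71% of the AhR peaks of the whole list overlapped an untreated region. C/EBPα overlapped 13 of the 30 peaks farther out, against 56.0%. Where partners overlapped, which by itself keeps the centres near each other, the median distance from an AhR centre was 18.25 bp (1 to 73.5) to a C/EBPα centre over 14 peaks. It was 28.5 bp (2.5 to 144.5) to an H3K27ac centre over 23 peaks.

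Seen from the other lists, 14 of the 33 C/EBPα peaks of these genes held an AhR peak, or 42.4%, against 50.1% of the whole C/EBPα list. Merged entries made up 21 of the 33, against 59.6% of that list, and 15 had a merge number of at least 3, against 39.0%. Among the 56 untreated H3K27ac regions 24 overlapped an AhR peak, or 42.9%, against 37.8% of that list.

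The inhibitor list held 46 regions at these genes. Of these, 45 had the same coordinates as an untreated region, against 95.9% of the whole inhibitor list. Counting any overlap of at least 1 bp also gave 45, so none overlapped a region of the other list without being identical. Whether the lists were called separately is not given, so this sharing is not read as agreement between the experiments. At AHR, PTGES3 and HSP90AB1 the lists were identical, with 4, 1 and 14 regions. The regions of the untreated list alone numbered 4 at ARNT2, 3 at AHRR, 2 at TIPARP and 2 at ARNT, and a region at chr1:150895658-150895871 near ARNT was present in the inhibitor list alone. Shared regions made up 80.4% of the untreated regions (95% Wilson interval 68.2 to 88.7), against 87.4% of the whole untreated list. Of the 11 untreated regions without a match, 3 overlapped an AhR peak. These were the regions under the AhR peaks in CTXND2 near ARNT, beyond the high-coordinate end of ARNT2 and at the outermost downstream peak of TIPARP. Over the whole untreated list, 23.2% of unmatched regions overlapped an AhR peak. Of the 45 shared regions 21 did, against 39.9% of shared regions over the whole list. Neither list is divided by condition, so an effect of the inhibitor on any of these regions was not tested.

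Other genes of the pathway were read from fixed lists. All 9 coactivator and corepressor genes, 3 genes of degradation and 6 target enzymes had an AhR peak within 50 kb, where 85.4% of all genes did. HSP90AA1, the inducible HSP90 form, had 4 AhR peaks. Among target enzymes CYP1A1 had 7 peaks within 50 kb and NQO1, a quinone reductase, had 11, while CYP1B1 had 2, or 1.84 per 100 kb, below the median of all genes. The median density of the enzymes was 7.01 AhR peaks per 100 kb, against 3.2 for the 7 genes of the machinery and 2.58 for all genes. CYP1A1 and CYP1A2 are neighbours and share peaks.

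The HepG2 label was set beside markers in the same windows. The 7 hepatocyte markers had 10 to 61 untreated H3K27ac regions each, with 61 at ALB, and the 4 leukocyte markers had 1 to 13, with 1 at PTPRC. The 3 endothelial markers had 17 to 41 and the 3 stellate or fibroblast markers 8 to 21, so regions within 50 kb do not by themselves separate these classes.

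The genes with the most similar densities over the 4 lists, by Euclidean distance of log2(entries per 100 kb + 1), were GATAD1 and SFTPD for AHR (distances 0.01 and 0.037), ERO1A and XRN1 for ARNT (0.223 and 0.278), and ADAMTS7 and TTLL8 for ARNT2 (0.158 and 0.17). They were NBDY and ADAMTS7 for AHRR (0.269 and 0.273), CPM and UHRF1 for TIPARP (0.126 and 0.135), CENPL and APBA3 for PTGES3 (0.005 and 0.204), and ZFYVE19 and CHID1 for HSP90AB1 (0.007 and 0.045). The likeness is over 4 lists, of which the H3K27ac pair is largely identical.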

How the data were processed

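The authors deposited 6 peak lists, of which the 4 from HepG2 were used. The deposited values are positions (name, chromosome, start, end, strand sign), with no score or count. Bowtie2 and HOMER, and the builds hg38 and mm10, are named per the submitters' processing notes, with settings, filters and merged sets not given in the sources used here. Depth is unknown, and no comparison of conditions could be fitted. The mouse lists were not used here.

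Each entry was assigned to every protein-coding gene (RefSeq, GRCh38.p14, chromosomes 1 to 22 and X) whose body lay within 50 kb. Overlap meant at least 1 bp. Densities are per 100 kb of window. Shares of peaks carry 95% Wilson intervals for counting error only. GCGTG and TNGCGTG were searched on both strands of the RefSeq promoter windows. Alternatives were windows of 10 kb and 0 kb, the nearest gene only, merged entries, other overlap rules and the inhibitor list. Positions are printed as deposited.

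All 7 genes and each of their AhR peaks are named, with most of the partner entries nearest to a start and the 2 most similar genes per member. The list of other cytosolic partner genes is not reported here in full. The members and lists were chosen with earlier results of these data known. The settings on distance from starts were chosen after seeing the data. The interval routines were checked on simulated lists against direct counting. Tables were read with pandas 2.3.3 and NumPy 2.4.6 under Python 3.11.15, and figures were drawn with Matplotlib 3.10.9.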

Additional observations from a re-analysis of the deposited data

How the results depend on the processing

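Counts depend on the window by construction. The 37 AhR peaks became 23 within 10 kb, 19 inside the gene bodies, 8 with merged entries only and 2 with a centre within 1 kb of a start. The 33 C/EBPα peaks became 17, 12, 21 and 2 in the same order. The 56 untreated H3K27ac regions became 37 within 10 kb, 29 inside and 1 within 1 kb of a start, and the 46 inhibitor regions became 30, 24 and 1. With the nearest gene only, the AhR count was 26, and HSP90AB1 kept 0 of its 5 AhR peaks, ARNT 3 of 6 and PTGES3 2 of 4. Among the 8 merged AhR peaks, the share with C/EBPα was 62.5%, with H3K27ac 87.5% and with both 50%. Each lay above the counting interval of the share over all 37 peaks. In the whole list, 23988 peaks were merged: 14883 with both partners, 2669 with C/EBPα alone, 5294 with H3K27ac alone and 1142 with neither. Alternatives were also the other overlap rules, the inhibitor list, the 10 kb window and peaks beyond 3 kb of starts. Under these, the shares with C/EBPα, H3K27ac and both stayed within the counting intervals of the values reported. The inhibitor list shares most of its regions with the untreated list, so it is not a separate check. With TNGCGTG in place of GCGTG, 2 promoter windows held a match instead of 8, since the longer letters contain the shorter. No paired analysis was possible because the lists hold no value per library, and for the same reason no replicate could be left out. The settings within 1 kb and beyond 3 kb of starts were chosen after seeing the data. Depth limits every absence: a site not listed is not shown to be unbound.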

Other observations

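The other genes of the bHLH-PAS family, the protein family of AHR, ARNT and AHRR, were read in the same way. All 12 had an AhR peak within 50 kb, where 85.4% of protein-coding genes did, and their median density of 2.02 AhR peaks per 100 kb stood beside 2.58 for all genes. EPAS1, which encodes the hypoxia-inducible factor HIF-2α, a partner of ARNT, had 22 AhR peaks, 28 C/EBPα peaks and 56 untreated H3K27ac regions, and 14 of the AhR peaks overlapped both. HIF1A, the related factor, had 8 AhR peaks, 5 C/EBPα peaks and 3 untreated H3K27ac regions, with 1 AhR peak overlapping both. NPAS2, a clock factor, had 21 AhR peaks and 41 untreated regions, and CLOCK, its paralog, had 4 and 8, with 0 AhR peaks overlapping both at CLOCK. BMAL1, the partner of these clock factors, had 5 AhR peaks and BMAL2 had 1. SIM1, a factor of neural development, had 3 AhR peaks and 1 untreated region. The named genes of this family were chosen after their values were seen.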
